A study of Mus musculus with 21 samples.

Results

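Motile cilium genes encode the parts of the beating cilium and the factors that switch these parts on. Their signals were followed on 21 Affymetrix mouse expression arrays. The samples were neurons made in culture by differentiating embryonic stem cells. The list held 43 genes, and 41 of them matched a probe set with that gene symbol, out of 18193 genes on the array. Cfap44 and Mcidas matched no probe set, and no signal of theirs is given. For each gene the most variable probe set over the 21 arrays stands for it. The genes were chosen by their known role and with earlier results of these arrays known, the expression differences between the groups among them, so their values describe them, and no p value is given for any of the 41 genes or for their mean.

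The arrays fell into 7 groups of 3, which the titles number as biological replicates. In 3 engineered lines, named NesE-Lmx1a, NesE-Nkx2.2 and NesE-Olig2, the line name pairs a nestin enhancer with the factor, and this enhancer is known to act in neural progenitors. The groups were the Nkx2.2 line at day 10 with sonic hedgehog (SHH) and retinoic acid (RA), labelled caudal hindbrain serotonergic neurons, and the Lmx1a line at day 14 with SHH and FGF8, labelled mature mesencephalic dopamine neurons. There followed the Nkx2.2 line at day 10 with SHH and FGF8, labelled rostral hindbrain serotonergic, and the Lmx1a line at day 10 with SHH and FGF8, labelled immature dopamine. The Olig2 line was taken at day 8 with SHH and RA as somatic motoneurons. The wild type cells received FGF8 (day 10) or RA (day 8). The labels of the wild type cells conflict on SHH, which stands in the titles and not in the source names. Their descriptions say dorsal midbrain (FGF8) and dorsal hindbrain (RA), so in each comparison with wild type cells the line and SHH cannot be told apart. All RNA came from purified post-mitotic neurons, per the labels, and the way they were purified is not stated there.

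A motile cilium beats by means of an axoneme, a ring of doublet microtubules around a central pair. Dynein arms on the doublets produce the sliding, radial spokes and the nexin-dynein complex turn it into a regulated bend, and proteins inside the doublets stabilise them. The transcription factor FOXJ1, with RFX factors that bind a promoter motif called the X-box, switches on this gene set. In the nervous system motile cilia are known from ependymal cells, choroid plexus and the floor plate of the neural tube, while neurons and their progenitors usually carry a primary cilium that does not beat.

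Because RFX factors and FOXJ1 act at the promoters of such genes, the windows around the start sites were searched for their motifs, on both strands. RefSeq promoters (GRCm38.p6, 250 bases before to 50 after the start site) were found for 38 of the 43 listed genes. The X-box consensus, read as GTNNCC, then NN, then GGNAAC, was present in 4 of these 38 (10.5%), against 1.49% of 27025 promoters of all genes, and in 9 of 57 promoters (15.8%) of other motile cilium genes. The shorter X-box form GTTGCCAT was present in 3 of 38 (7.89%), those of Tekt1, Iqcg and Cfap44, against 1.54% of all promoters. The FOXJ1-type motif GTAAACA was present in 2 of 38 (5.26%), against 4.05% of all promoters. The letters of the longer and shorter X-box forms can overlap. A match describes the letters in the window and is not a measured binding site. The stretches below hold the long X-box (Pifo, Tekt4, Ccno and, past the start site, Spag6l), the short form (Tekt1 and Iqcg) and the FOXJ1-type motif (Ak7 and Cfap43), with the motif in capitals and each written 5′ to 3′ along the gene's strand. For Ccno, Spag6l and Ak7 the motif lies on the opposite strand, so the capitals show its reverse complement.
Pifo (chr3:106001498-106001557, minus strand): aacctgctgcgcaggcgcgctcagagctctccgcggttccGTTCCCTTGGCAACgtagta
Tekt4 (chr17:25471407-25471466, plus strand): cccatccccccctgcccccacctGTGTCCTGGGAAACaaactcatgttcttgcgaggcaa
Ccno (chr13:112987560-112987619, plus strand): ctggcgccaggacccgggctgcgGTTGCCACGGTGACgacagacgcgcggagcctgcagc
Spag6l (chr16:16829314-16829343, minus strand): tccggttgctgtcgGTTGCCCTGGAGACgc
Tekt1 (chr11:72361883-72361942, minus strand): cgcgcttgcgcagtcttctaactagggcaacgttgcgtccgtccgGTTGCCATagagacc
Iqcg (chr16:33056187-33056246, minus strand): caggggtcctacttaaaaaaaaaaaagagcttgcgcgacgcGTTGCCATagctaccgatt
Ak7 (chr12:105705824-105705883, plus strand): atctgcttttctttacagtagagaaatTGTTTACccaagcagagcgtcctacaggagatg
Cfap43 (chr19:47837384-47837443, minus strand): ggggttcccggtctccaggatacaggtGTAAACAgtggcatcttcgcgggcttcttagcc
Genes with the same motif differed on the arrays: Pifo varied widely, and Ccno was flat on all 21 arrays.

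The values are log2 signals from which each probe set's own median has been subtracted, so a value of 0 is the gene's middle array and levels of different genes cannot be compared. Differences between arrays for the same gene can be read. In bulk samples, fewer cells of a type and less RNA per cell cannot be told apart. The hybridization control bioC split the arrays into 9 with low signals (-2.75 to -1.27) and 12 with higher ones (-0.15 to 0.65). Low signals were found on every array of the immature dopamine group and on replicates 1 and 2 of the mature one, the motoneurons and the FGF8 wild type. The Nkx2.2 line under both factors and the RA wild type lay wholly among the 12. The labelling controls of the Lmx1a line at day 10 were low on every array, at -3.59 to -3.57. The labels name no batch. The genes the lines are named for had their highest group means in their own lines, with Lmx1a at 8.06 to 9.31 on the 6 arrays of its line, Nkx2-2 at 1.46 to 1.85 with RA and 0.13 to 1.08 with FGF8, and Olig2 at 3.8 to 5.24, and Olig2 also read 4.89 on replicate 3 of the Lmx1a line at day 10. No array was a copy of another, with the highest correlation between arrays at 0.89.

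The mean of the 41 genes separated the groups clearly. It was 1.67, 1.81 and 2.73 in the Nkx2.2 line with RA, 2.07 ± 0.58 (SD, n = 3), and 2.45, 2.14 and 2.57 in the Lmx1a line at day 14, 2.38 ± 0.22. It was 0.90, 0.20 and 0.11 in the Nkx2.2 line with FGF8, 0.41 ± 0.43, and 0.86, 0.58 and 0.26 in the Lmx1a line at day 10, 0.57 ± 0.30. The Olig2 line was low, at -0.36 ± 0.09, as were the FGF8 wild type at -0.32 ± 0.06 and the RA wild type at -0.18 ± 0.14. All 6 arrays of the Nkx2.2 line with RA and the Lmx1a line at day 14 lay above the other 15. The groups in the middle, the Nkx2.2 line with FGF8 and the Lmx1a line at day 10, overlapped each other, and the 3 lowest groups overlapped as well.

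**Figure D1:**
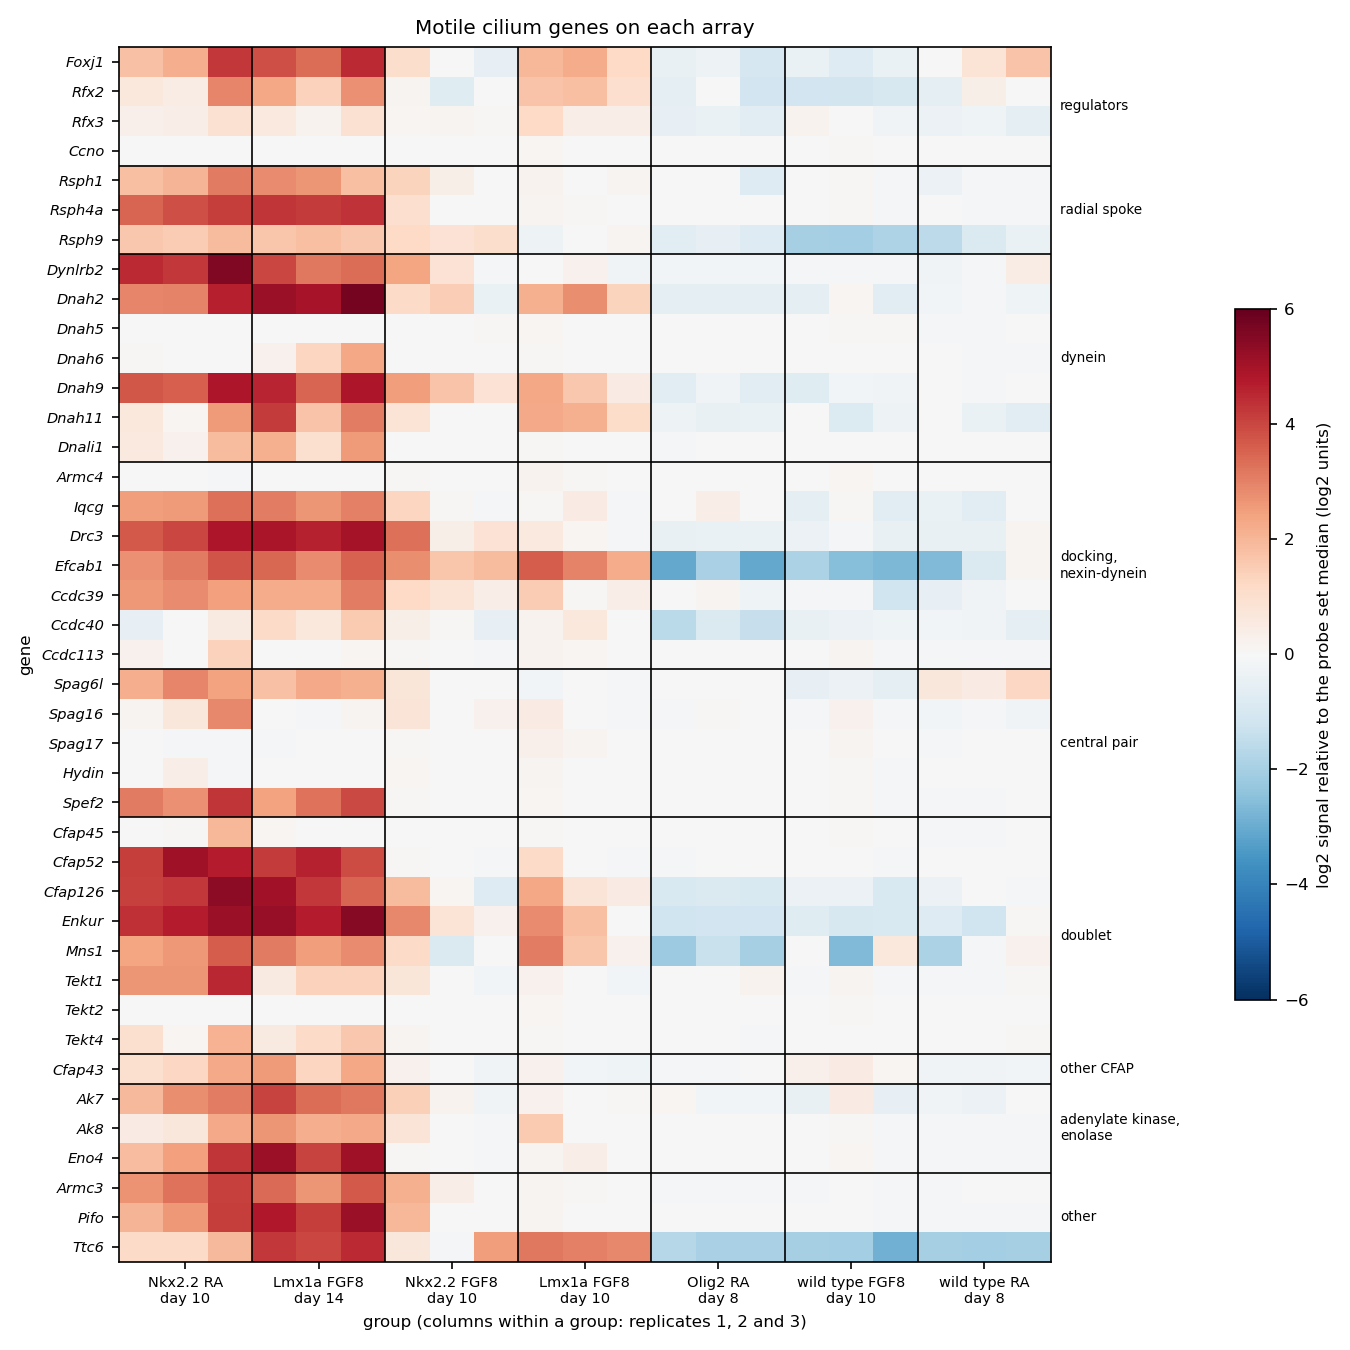
Each row is 1 of the 41 motile cilium genes, ordered by role, and each column 1 array. The colour gives the log2 signal relative to the probe set median, red above and blue below. The left 6 columns, the Nkx2.2 line with RA and the Lmx1a line at day 14, are red in most rows, and 6 rows are blank throughout.

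Within the list, 33 genes had a range over 2 log2 units across the 21 arrays, the widest at 7.33. For 27 genes the Nkx2.2 line with RA and the Lmx1a line at day 14 had the highest means of the 7 groups. For 20 genes all 6 arrays of these groups lay above all 15 others, a pattern shown by 248 of all 18193 genes (1.36%). These were Rsph1, Rsph4a, Rsph9, Cfap43, Cfap52, Cfap126, Enkur, Dynlrb2, Ak7, Dnah2, Dnah9, Dnali1, Armc3, Iqcg, Spag6l, Pifo, Drc3, Eno4, Ccdc39 and Spef2. Across the 21 arrays the correlation of a gene with the mean of the other members had a median of 0.85, with 26 genes over 0.8 and 5 below 0 (lowest -0.23, Dnah5). The arrays share their groups, so these correlations describe the group differences again.

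On the probe sets used, the regulators that were not flat moved by different amounts. Their correlations with the mean of the other members were 0.92 (Foxj1), 0.83 (Rfx2) and 0.74 (Rfx3). Foxj1, the master transcription factor of motile cilia, stood at 1.78, 2.17 and 4.25 in the Nkx2.2 line with RA, and at 3.88, 3.34 and 4.50 in the Lmx1a line at day 14. It stood at 2.00, 2.23 and 1.19 in the Lmx1a line at day 10 and at 1.06, -0.01 and -0.48 in the Nkx2.2 line with FGF8. It was low in the Olig2 line, at -0.46, -0.28 and -1.01, and in the FGF8 wild type, at -0.41, -0.79 and -0.39, and read -0.03, 0.82 and 1.72 in the RA wild type. Replicate 3 of the RA wild type thus came close to the lower arrays of the Nkx2.2 line with RA, and the Lmx1a line at day 10 overlapped them. Rfx2, an RFX factor of ciliated cells, ran from 0.43 to 2.95 in the Nkx2.2 line with RA and from 1.40 to 2.75 in the Lmx1a line at day 14. It was already at 1.00 to 1.82 in the Lmx1a line at day 10, against -1.15 to -0.96 in the FGF8 wild type. Rfx3, its paralogue in cilium gene control, stayed between -0.61 and 1.19 on all arrays. The other Rfx3 probe set averaged 0.54 in the Nkx2.2 line with RA and 0.69 in the Lmx1a line at day 14, against -0.04 to 0.08 in the remaining groups. Rfx2 depended on the probe set as well: its other probe sets averaged 0.03 to 0.04 in the Lmx1a line at day 10 and -0.01 to 0.19 at day 14. Ccno, a cyclin-like protein needed for centriole amplification in multiciliated cells, was flat.

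All 3 radial spoke head genes were high in the Nkx2.2 line with RA and in the Lmx1a line at day 14. Rsph4a read 3.50, 3.87 and 4.14 in the Nkx2.2 line with RA, and 4.31, 4.18 and 4.35 in the Lmx1a line at day 14. It read 1.00, 0.00 and -0.03 in the Nkx2.2 line with FGF8 and lay between -0.10 and 0.18 on the other 12 arrays. Replicate 1 of the Nkx2.2 line with FGF8 was the only array between the high and low ranges. Rsph1 lay at 1.82 to 3.12 in the Nkx2.2 line with RA and at 1.81 to 2.82 in the Lmx1a line at day 14. Rsph9 differed from both in its low groups: it read 1.19, 0.85 and 1.07 in the Nkx2.2 line with FGF8, -0.28, 0.00 and 0.16 in the Lmx1a line at day 10, and -2.0, -2.04 and -1.84 in the FGF8 wild type.

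Among 7 dynein genes, 4 were wide in range and separated the high groups. Dnah2, an inner arm heavy chain, read 2.95, 2.95 and 4.67 in the Nkx2.2 line with RA, and 5.19, 4.92 and 5.77 in the Lmx1a line at day 14. It read 1.16, 1.47 and -0.38 in the Nkx2.2 line with FGF8, and was raised at day 10 of the Lmx1a line, at 2.14, 2.79 and 1.32, while FGF8-treated wild type cells read -0.58, 0.11 and -0.67. The Olig2 line lay at -0.60 to -0.57 and the RA wild type at -0.24 to -0.11. Dnah9, an outer arm heavy chain, read 3.74, 3.58 and 4.83 in the Nkx2.2 line with RA, 4.55, 3.49 and 4.87 in the Lmx1a line at day 14, 2.49, 1.72 and 0.85 in the Nkx2.2 line with FGF8, and 2.31, 1.62 and 0.49 in the Lmx1a line at day 10. It lay at or below 0.00 on all 9 arrays of the Olig2 line and the wild types. Dynlrb2, a dynein light chain of the roadblock family, read 4.49, 4.22 and 5.55 in the Nkx2.2 line with RA, and 4.02, 3.18 and 3.35 in the Lmx1a line at day 14. It read 2.38, 0.87 and -0.12 in the Nkx2.2 line with FGF8 and lay at -0.21 to 0.47 on the other 12 arrays, so replicate 1 of the FGF8 group stood between the high and the low arrays. Dnali1, an inner arm light intermediate chain, was lower and more spread, at 0.26 to 1.88 in the Nkx2.2 line with RA and at 0.94 to 2.58 in the Lmx1a line at day 14. Dnah11, an outer arm heavy chain, was at 0.11 to 2.55 in the Nkx2.2 line with RA and at 1.72 to 4.20 in the Lmx1a line at day 14, and it overlapped the Lmx1a line at day 10 (1.12 to 2.28). Dnah6, an inner arm heavy chain, read 0.28, 1.27 and 2.32 in the Lmx1a line at day 14 and 0.08 or lower on every other array. Dnah5, an outer arm heavy chain, was flat.

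The genes of the nexin-dynein complex, the dynein docking system and the molecular ruler were mixed. Drc3, a nexin-dynein subunit, read 3.69, 4.02 and 4.85 in the Nkx2.2 line with RA, and 4.89, 4.61 and 4.99 in the Lmx1a line at day 14. Its value on replicate 1 of the Nkx2.2 line with FGF8 was 3.31, against 0.37 and 0.88 on that group's other arrays, and it read 0.60, 0.13 and -0.12 in the Lmx1a line at day 10. The Olig2 line and the wild types lay at -0.46 to 0.16. Iqcg, another nexin-dynein subunit, lay at 2.53 to 3.32 in the Nkx2.2 line with RA and at 2.63 to 3.09 in the Lmx1a line at day 14. Efcab1, whose product calaxin binds outer arm dynein, had a pattern of its own. It read 2.74, 3.11 and 3.78 in the Nkx2.2 line with RA, 3.43, 2.83 and 3.53 in the Lmx1a line at day 14, 2.80, 1.65 and 1.88 in the Nkx2.2 line with FGF8, and 3.65, 2.99 and 2.23 in the Lmx1a line at day 10. It was at -3.09 to -1.95 in the Olig2 line, at -2.70 to -1.89 in the FGF8 wild type and at -2.65, -0.86 and 0.16 in the RA wild type. Efcab1 was thus high in all 4 groups of the Nkx2.2 and Lmx1a lines, with no array of theirs overlapping the other 9. The ruler genes Ccdc39 and Ccdc40 parted on the probe sets used: Ccdc39 lay at 2.48 to 2.81 in the Nkx2.2 line with RA and at 2.2 to 3.09 in the Lmx1a line at day 14, while Ccdc40 lay at -0.51 to 0.55 and at 0.63 to 1.57 in the same groups. Another Ccdc39 probe set averaged 0.27 and 1.26 in these groups, near the Ccdc40 means of 0.02 and 1.12. The parting thus depended on the probe set. Ccdc113 was high only on replicate 3 of the Nkx2.2 line with RA, at 1.37, and at 0.24 or lower elsewhere, and Armc4, a docking factor of outer arms, was flat.

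Only part of the central pair list moved. Spef2 read 3.12, 2.73 and 4.27 in the Nkx2.2 line with RA, and 2.43, 3.26 and 3.94 in the Lmx1a line at day 14, and lay between -0.06 and 0.13 on the other 15 arrays. Spag6l was at 2.16 to 2.93 in the Nkx2.2 line with RA and at 1.77 to 2.29 in the Lmx1a line at day 14, and its RA wild type arrays, at 0.48 to 1.26, were above the FGF8 ones, at -0.52 to -0.37. Spag16 was high on replicate 3 of the Nkx2.2 line with RA alone, at 2.87, and lay at 0.79 or lower elsewhere. Spag17 and Hydin were flat.

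Among proteins in and on the doublets, Cfap52, Enkur and Cfap126 kept all 6 high arrays above the rest. Cfap52 read 4.16, 5.07 and 4.72 in the Nkx2.2 line with RA, and 4.19, 4.63 and 3.93 in the Lmx1a line at day 14. It was at 1.15 on replicate 1 of the Lmx1a line at day 10 and between -0.11 and 0.06 on the other 14 arrays. Enkur, which encodes the microtubule inner protein enkurin, read 4.39, 4.71 and 5.16 in the Nkx2.2 line with RA, and 5.24, 4.72 and 5.46 in the Lmx1a line at day 14. At day 10 of the Lmx1a line it read 2.82, 1.83 and 0.00, and in the Nkx2.2 line with FGF8 2.86, 0.84 and 0.25. All of these but replicate 3 of the Lmx1a line stood above all wild type arrays (-1.20 to 0.06), and replicate 1 was the highest in each group. Cfap126, the Flattop gene, read 4.11, 4.24 and 5.38 in the Nkx2.2 line with RA, 5.04, 4.24 and 3.49 in the Lmx1a line at day 14, 1.92, 0.10 and -0.80 in the Nkx2.2 line with FGF8, and 2.33, 0.76 and 0.50 in the Lmx1a line at day 10. No array of the Olig2 line or the wild types passed 0.03. Mns1 read 2.36, 2.61 and 3.65 in the Nkx2.2 line with RA, 3.13, 2.50 and 2.85 in the Lmx1a line at day 14, 1.15, -0.86 and 0.00 in the Nkx2.2 line with FGF8, 3.08, 1.66 and 0.25 in the Lmx1a line at day 10, and -2.19, -1.32 and -2.01 in the Olig2 line. Its groups overlapped, and its wild type arrays were spread as well, at -1.91, -0.08 and 0.25 with RA and at -0.02, -2.65 and 0.64 with FGF8. The tektins, filaments within the doublet wall, split: Tekt1 read 2.67, 2.67 and 4.52 in the Nkx2.2 line with RA, against 0.52, 1.37 and 1.38 in the Lmx1a line at day 14, Tekt4 stayed at or below 2.10 and Tekt2 was flat. Cfap45 was high on replicate 3 of the Nkx2.2 line with RA alone, at 2.00, and at 0.10 or lower elsewhere. Cfap43, an axonemal protein of motile cilia, lay at 0.94 to 2.28 in the Nkx2.2 line with RA and at 1.30 to 2.56 in the Lmx1a line at day 14.

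Among the enzymes and the genes outside these classes, Eno4, Ak7, Armc3 and Pifo had all 6 high arrays above the other 15, and Ak8 and Ttc6 did not. Eno4, an enolase of the sperm flagellum, read 1.85, 2.45 and 4.27 in the Nkx2.2 line with RA, and 5.15, 4.04 and 5.09 in the Lmx1a line at day 14, and no other array passed 0.41. Ak7, an adenylate kinase of motile cilia, lay at 1.92 to 3.06 in the Nkx2.2 line with RA and at 3.14 to 4.04 in the Lmx1a line at day 14, with Ak8, a second such kinase, at 0.51 to 2.27 and at 2.19 to 2.65. Armc3 lay at 2.70 to 4.10 in the Nkx2.2 line with RA and at 2.65 to 3.70 in the Lmx1a line at day 14. Pifo, the pitchfork gene of the ciliary base, read 2.04, 2.59 and 4.17 in the Nkx2.2 line with RA, and 4.80, 4.16 and 5.16 in the Lmx1a line at day 14. It was at 1.97 on replicate 1 of the Nkx2.2 line with FGF8 and at 0.14 or lower on all others. Ttc6 read 1.14, 1.15 and 1.96 in the Nkx2.2 line with RA, 4.26, 3.99 and 4.46 in the Lmx1a line at day 14, 0.69, -0.13 and 2.49 in the Nkx2.2 line with FGF8, and 3.16, 3.01 and 2.89 in the Lmx1a line at day 10. On the 9 arrays of the Olig2 line and the wild types it lay between -2.87 and -1.69, without overlap with any array of the Nkx2.2 and Lmx1a lines. The other Ttc6 probe set was high only in the Lmx1a line at day 14, with a mean of 3.36. Its means were 0.68 in the Lmx1a line at day 10, 0.24 in the Nkx2.2 line with FGF8 and 0.21 with RA. In the Olig2 line and the wild types they were -0.08 to -0.02.

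**Figure D2:**
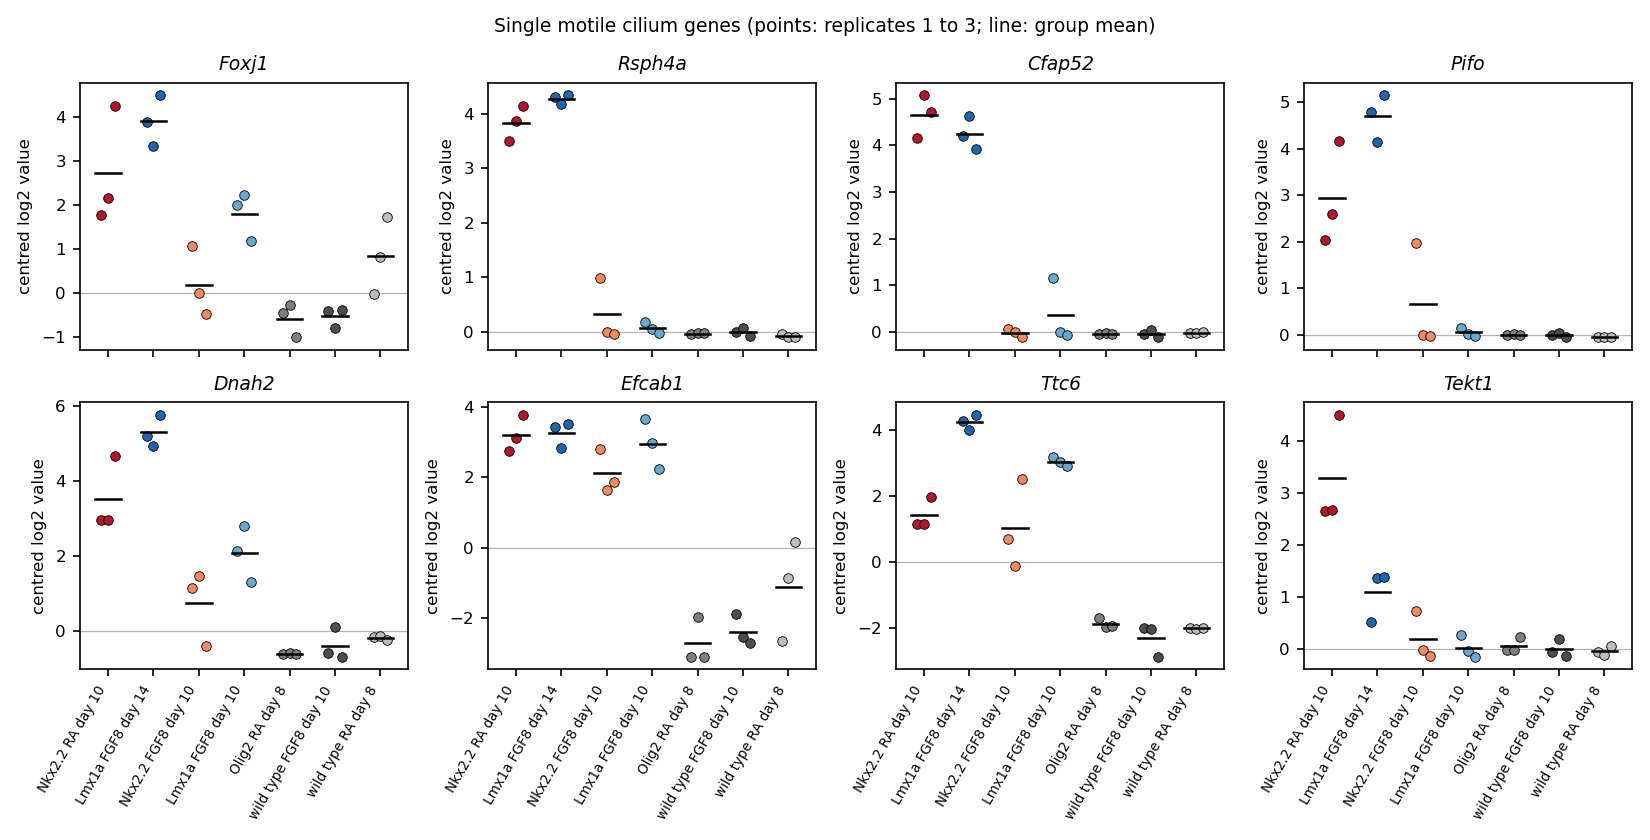
Centred log2 value (y axis) of 8 motile cilium genes in the 7 groups, with a point per array and a line at the group mean. Rsph4a, Cfap52 and Pifo are high in the Nkx2.2 line with RA and the Lmx1a line at day 14, Efcab1 is high in all 4 groups of those lines, Ttc6 is highest in the Lmx1a line, and Tekt1 is highest in the Nkx2.2 line with RA.

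The 6 flat genes ranged over less than 0.5 units across the 21 arrays: Dnah5, Armc4, Spag17, Tekt2, Hydin and Ccno. The widest of these spanned 0.45, and the next gene of the list spanned 1.48. Among all genes 4888 of 18193 were this flat. After centring, a probe set without signal and a gene at the same level everywhere look alike, so these 6 say nothing about whether the gene was on. For 17 members there were 26 further probe sets, of which 15 had a higher mean in the Nkx2.2 line with RA than in both wild types, and 17 in the Lmx1a line at day 14. Of the 26, 9 had an SD over 0.5 across the arrays, and all 9 were higher than both wild types in each of these groups. Cfap43 depended on the probe set: with a rule that keeps no suffixed probe sets it differed by -0.09 between days 14 and 10 of the Lmx1a line, against 2.10 with the probe set used here. Under that rule Eno4 and Ccdc39 differed by only 0.55 and 0.45 between the Nkx2.2 line with RA and the RA wild type. With the mean of all probe sets, calls described below ended in some comparisons for Cfap43, Ccdc39, Spag16, Rfx2, Dnah2, Dnah9 and Drc3.

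Against the RA wild type, the Nkx2.2 line with RA had 27 of the 41 genes called higher and 0 lower. Calls needed a limma adjusted p below 0.05, over all 18193 genes, together with a log2 difference of at least 1, and 8.84% of all genes were called higher and 9.16% lower. Each standard error rests on 1 variance per gene over all 7 groups. Where most groups lie near 0 with little spread, the standard error can understate the spread in the groups with high values. The median member difference was 2.51 log2 units, against 0.01 for all genes, and the list mean differed by 2.26. The largest differences were Enkur at 5.40 ± 0.64 (standard error), Cfap126 at 4.72 ± 0.60, Dynlrb2 at 4.71 ± 0.47, Cfap52 at 4.67 ± 0.27, Drc3 at 4.42 ± 0.53 and Efcab1 at 4.33 ± 0.59. All 3 radial spoke genes were called, Rsph4a at 3.92 ± 0.20, Rsph9 at 2.61 ± 0.22 and Rsph1 at 2.51 ± 0.37, and of the doublet genes 6 of 8. Foxj1 was called at 1.90 ± 0.59, but at 1.14 without replicate 3 of the Nkx2.2 line with RA, at 1.46 without replicate 1 and at 1.89 without replicate 2 of the RA wild type its call ended. Of the 27 calls, 23 held with each array left out in turn. The line was sampled at day 10 and the wild type at day 8, so line and day cannot be told apart, and all 6 arrays lay among the 12 with higher bioC signals.

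Against the FGF8 wild type, the Lmx1a line at day 14 had 30 of the 41 genes called higher and 0 lower, with 6.37% of all genes called higher and 3.46% lower. The median member difference was 3.22, and the list mean differed by 2.71. Ttc6 differed by 6.53 ± 0.46, Enkur by 6.02 ± 0.64, Dnah2 by 5.68 ± 0.51, Efcab1 by 5.64 ± 0.59, Drc3 by 5.15 ± 0.53 and Cfap126 by 4.79 ± 0.60. Foxj1 differed by 4.44 ± 0.59 and Rfx2 by 3.23 ± 0.55. Of the 30 calls, 28 held with each array left out in turn. The wild type was sampled at day 10, so line and day cannot be told apart here. Among the arrays with low bioC signals, 2 in each group, 22 genes were called. The FGF8 wild type was itself uneven outside the cilium genes: cell cycle genes summed to 22.42, -20.79 and 28.96 on its replicates 1 to 3, and neural progenitor genes to 8.90, -11.49 and 10.73, and this group serves as the wild type in 3 comparisons. With any 1 of its arrays left out, 29 members were called in this comparison.

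Within the Lmx1a line, day 14 had 23 of the 41 genes called higher than day 10 and 0 lower, with 2.96% of all genes called higher and 1.28% lower. The median member difference was 1.86. Pifo differed by 4.66 ± 0.50, Drc3 by 4.63 ± 0.53, Eno4 by 4.55 ± 0.42, Rsph4a by 4.21 ± 0.20 and Cfap52 by 3.88 ± 0.27. Other genes were already high at day 10, so their differences were small and not called: Efcab1 at 0.31 ± 0.59, Rfx2 at 0.64 ± 0.55, Dnah11 at 1.14 ± 0.60 and Ttc6 at 1.22 ± 0.46. For Ttc6 this depended on the probe set, as its other probe set averaged 0.68 at day 10 and 3.36 at day 14. Foxj1 was called at 2.10 ± 0.59, but not with any of the 6 arrays left out (1.79 to 2.39). Of the 23 calls, 20 held with each array left out in turn. The low labelling controls of the day 10 arrays move with this comparison, and their part in it was not tested.

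Within the Nkx2.2 line at day 10, RA had 20 of the 41 genes called higher than FGF8 and 0 lower, with 2.66% of all genes called higher and 1.65% lower. Line and day are the same in this comparison, and the median member difference was 1.53. Cfap52 differed by 4.66 ± 0.27, Cfap126 by 4.17 ± 0.60, Dynlrb2 by 3.71 ± 0.47, Rsph4a by 3.51 ± 0.20, Enkur by 3.44 ± 0.64 and Spef2 by 3.36 ± 0.33. Efcab1 at 1.10 ± 0.59, Rsph9 at 0.63 ± 0.22 and Ttc6 at 0.40 ± 0.46 were not called. Foxj1 was called at 2.54 ± 0.59, but not without replicate 2 (2.44) or replicate 3 (2.21) of the FGF8 group or replicate 3 of the RA group (1.78). Replicate 1 of the FGF8 group was that group's highest array for 37 of 41 genes. Only 5 genes were called when the fit held these 6 arrays alone, and 12 when it held the 12 arrays with higher bioC signals. In limma's test of whether the line's difference from wild type cells depends on the factor, 12 of the 41 genes were called higher under RA and 0 lower, with 1.78% of all genes called higher and 2.6% lower. That test was not refitted with arrays left out, with the bioC split or with other probe set rules.

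The Lmx1a line at day 10 had 9 of the 41 genes called higher than the FGF8 wild type and 0 lower, with 1.96% of all genes called higher and 1.36% lower. They were Efcab1 at 5.33 ± 0.59, Ttc6 at 5.31 ± 0.46, Rfx2 at 2.59 ± 0.55, Dnah2 at 2.47 ± 0.51, Enkur at 2.43 ± 0.64, Foxj1 at 2.34 ± 0.59, Dnah11 at 2.23 ± 0.60, Rsph9 at 1.92 ± 0.22 and Dnah9 at 1.84 ± 0.49. The median member difference was 0.19. The count fell to 5 without replicate 1 or replicate 2 of the Lmx1a line, or without replicate 2 or replicate 3 of the wild type, and to 4 without replicate 1 of the wild type. It was 5 with the bioC split as a block and 5 among the arrays with low bioC signals, and 4 genes were called whichever array was left out. The low labelling controls of the Lmx1a arrays move with this comparison too.

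The Nkx2.2 line with FGF8 had 5 of the 41 genes called higher than the FGF8 wild type at the same day and 0 lower, with 2.83% of all genes called higher and 1.71% lower. They were Efcab1 at 4.49 ± 0.59, Ttc6 at 3.31 ± 0.46, Rsph9 at 2.99 ± 0.22, Dnah9 at 2.05 ± 0.49 and Drc3 at 1.84 ± 0.53. Efcab1, Ttc6 and Rsph9 were called whichever array was left out. It fell to 3 calls without replicate 1 of the Nkx2.2 line or without replicate 1 or replicate 3 of the wild type, and 9 without replicate 3 of the Nkx2.2 line. With the bioC split as a block 3 were called. The Olig2 line had 0 of the 41 genes called against the RA wild type at the same day, higher or lower, with 5.5% of all genes called higher and 4.85% lower, and a median member difference of 0.04. At an unadjusted p under 0.05 limma gave 0 members higher and 4 lower there, and array weights gave 4 calls. The comparisons with the same wild type arrays, and those with the same line arrays, share these samples and are not independent of each other.

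**Figure D3:**
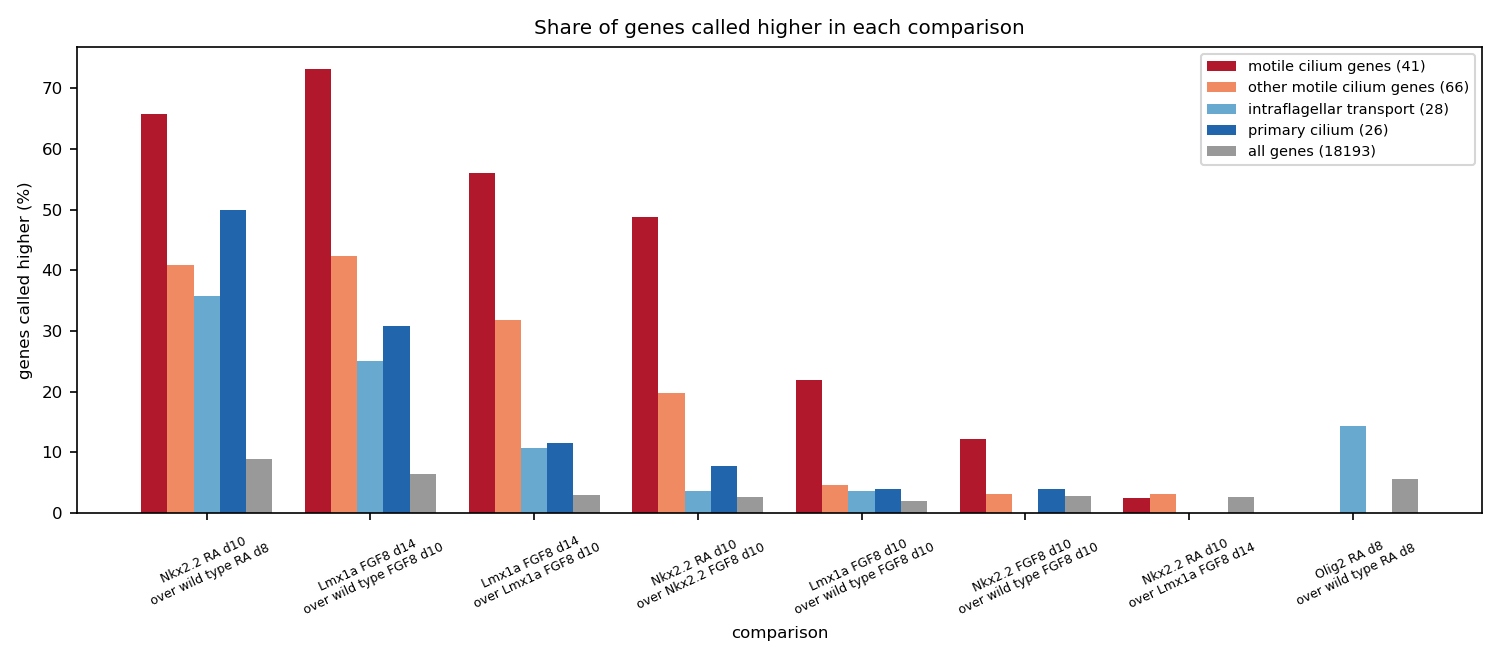
Share of genes called higher in limma (y axis, percent, from 0) for 8 comparisons, by gene list and for all genes. In the left 4 comparisons the bars of the motile cilium genes are the tallest, and for the Olig2 line against the RA wild type that bar is at 0.

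The Nkx2.2 line with RA and the Lmx1a line at day 14 reached similar list means, but single genes differed between them. These groups differ in line, in FGF8 or RA and in day, which cannot be told apart. The list mean differed by -0.31 (Nkx2.2 with RA minus Lmx1a day 14), and 28 genes had the higher mean in the Lmx1a line and 13 in the Nkx2.2 line. The median member difference was -0.05. Of the 41 genes 1 was called higher and 6 were called lower, with 2.69% of all genes called higher and 3.14% lower. Tekt1 was the higher one, by 2.19 ± 0.39. The lower ones were Ttc6 at -2.82 ± 0.46, Eno4 at -1.91 ± 0.42, Pifo at -1.77 ± 0.50, Dnah2 at -1.77 ± 0.51, Dnah6 at -1.26 ± 0.31 and Ccdc40 at -1.10 ± 0.30. Neither Foxj1, at -1.17 ± 0.59, nor Rsph4a, at -0.44 ± 0.20, was called.

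These 7 calls rested in part on single arrays. Leaving out replicate 3 of the Nkx2.2 line with RA gave 12 calls. There were 2 without its replicate 2, 3 without its replicate 1, 4 without replicate 1 of the Lmx1a line and 3 without its replicate 3. Ttc6 and Tekt1 were called whichever array was left out. Replicate 3 of the Nkx2.2 line with RA was that group's highest array for 31 of 41 genes, with a list mean of 2.73 against 1.67 and 1.81. Only 1 gene was called in a fit of the 6 arrays alone.

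**Figure D4:**
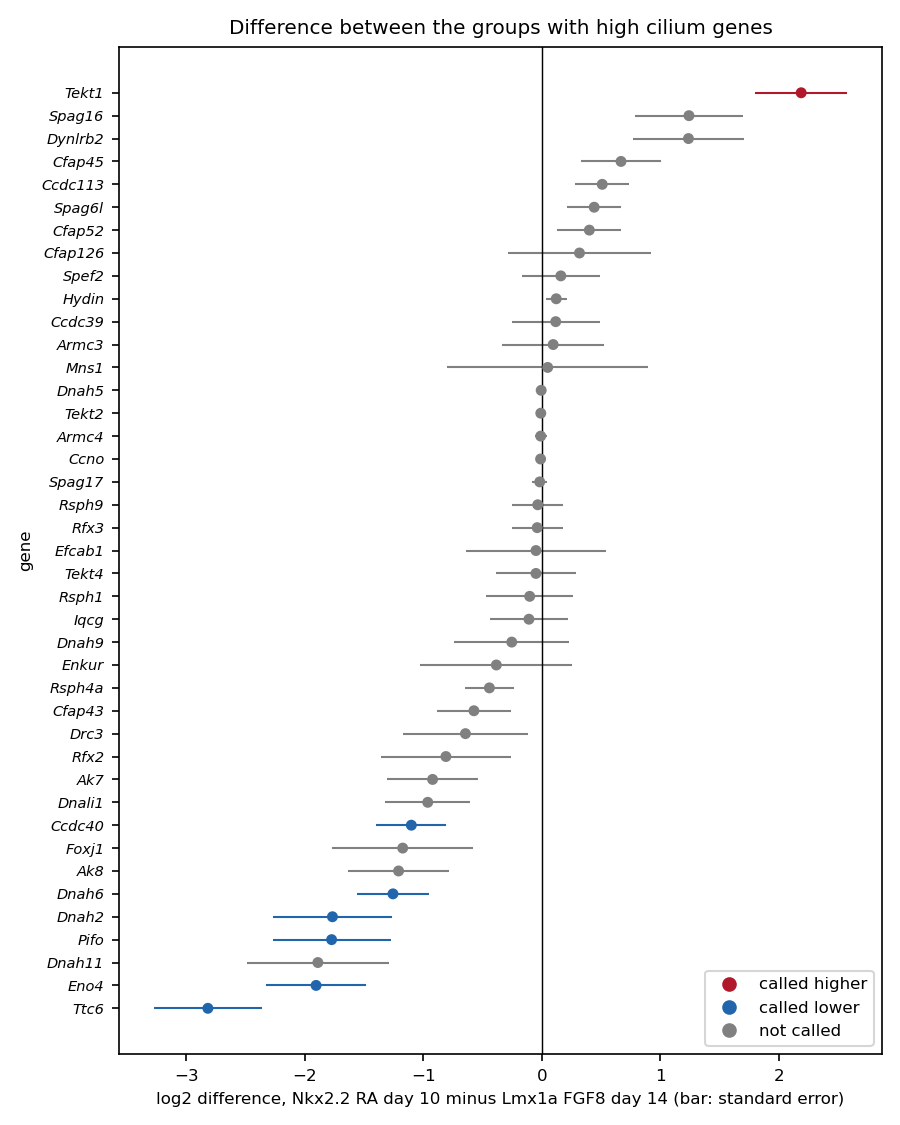
Log2 difference, Nkx2.2 line with RA at day 10 minus Lmx1a line at day 14 (x axis), for each of the 41 genes, with its standard error as a bar. Tekt1 lies at 2.19, Ttc6 at -2.82, and most genes lie within 1 unit of 0.

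A further 66 motile cilium genes, from a list of 93 that shares no gene with the 41, were set beside them. Their mean ran at 0.66 to 1.13 in the Nkx2.2 line with RA and at 0.85 to 1.10 in the Lmx1a line at day 14, against 0.41 or lower on every other array. Against the RA wild type, the Nkx2.2 line with RA had 27 of 66 called higher and 0 lower, with a median of 0.59 against 0.01 for all genes. Cfap54, a central pair protein, rose by 4.47 ± 0.54 (limma, adjusted p = 2.45e-05). Fam183b rose by 3.95 ± 0.47 (limma, adjusted p = 2.26e-05), and the radial spoke genes Dnajb13 and Nme5 rose by 3.92 ± 0.60 and 3.56 ± 0.47 (limma, adjusted p = 0.00017 and 5.85e-05). Katnal2, a katanin-like protein, rose by 3.75 ± 0.38 (limma, adjusted p = 6.25e-06). In the Lmx1a line at day 14 against the FGF8 wild type, 28 were called higher and 0 lower, with Fam183b up by 6.45 ± 0.47 (limma, adjusted p = 4.77e-07), Dnajb13 by 5.19 ± 0.60 (limma, adjusted p = 3.25e-05) and Cfap54 by 4.96 ± 0.54 (limma, adjusted p = 1.94e-05). Each of these calls held with every array left out in turn. Over all genes, the comparison with the RA wild type called 8.84% higher and 9.16% lower, and that with the FGF8 wild type 6.37% and 3.46%.

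Between day 14 and day 10 of the Lmx1a line, 21 of the 66 were called higher at day 14 and 0 lower, led by Dnajb13 at 3.32 ± 0.60 (limma, adjusted p = 0.00353) and Kif9, a kinesin of the central pair, at 3.19 ± 0.40 (limma, adjusted p = 0.000218). Between RA and FGF8 in the Nkx2.2 line 13 were called higher and 0 lower, led by Cfap54 at 2.92 ± 0.54 (limma, adjusted p = 0.00385), and 8 without replicate 2 of the FGF8 group. Over all genes, 2.96% were called higher and 1.28% lower in the first of these comparisons, and 2.66% and 1.65% in the second. Fam183b, like Efcab1, was called higher than the FGF8 wild type in the Lmx1a line at day 10, by 4.62 ± 0.47 (limma, adjusted p = 5.53e-05), and in the Nkx2.2 line with FGF8, by 4.0 ± 0.47 (limma, adjusted p = 9.84e-05). It was also the only one of the 66 called in the Olig2 line against the RA wild type, lower by -1.93 ± 0.47 (limma, adjusted p = 0.0104). Over all genes, 5.5% were called higher and 4.85% lower there. Between the Nkx2.2 line with RA and the Lmx1a line at day 14, 2 of the 66 were called higher and 4 lower. Over all genes, 2.69% were called higher and 3.14% lower, so the count of higher ones was near that share. The higher ones were Dnah1, an inner arm heavy chain, by 3.58 ± 0.37 (limma, adjusted p = 2.51e-05), and Efhc2, a protein of the doublet interior, by 2.05 ± 0.04 (limma, adjusted p = 9.97e-14). Efhc2 stayed near 0 in all other groups, so its standard error and p value rest mostly on arrays near 0. The count of calls between these groups was 3 without replicate 1 or replicate 2 of the Nkx2.2 line with RA, and 11 without its replicate 3.

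Genes that primary and motile cilia share also moved, by less. Of 28 intraflagellar transport genes, the cargo system of every cilium, 10 were called higher and 1 lower in the Nkx2.2 line with RA than in the RA wild type, and 7 higher and 0 lower in the Lmx1a line at day 14 than in the FGF8 wild type. Over all genes these comparisons called 8.84% and 6.37% higher, and 9.16% and 3.46% lower. Ift57 rose by 1.77 ± 0.17 (limma, adjusted p = 4.92e-06) and Ttc30b by 1.90 ± 0.34 (limma, adjusted p = 0.000671) in the Nkx2.2 line with RA. Ttc30b rose by 3.10 ± 0.34 (limma, adjusted p = 2.37e-05) and Ift122 by 2.13 ± 0.20 (limma, adjusted p = 6.37e-06) in the Lmx1a line at day 14. Of 26 primary cilium genes 13 were called higher in the Nkx2.2 line with RA and 8 in the Lmx1a line at day 14, with 0 lower in both, among them the transition zone genes Cc2d2a, by 2.16 ± 0.22 (limma, adjusted p = 5.78e-06) in the Nkx2.2 line and 2.07 ± 0.22 (limma, adjusted p = 1.67e-05) in the Lmx1a line, and Tctn2, by 1.84 ± 0.37 (limma, adjusted p = 0.00154) in the Nkx2.2 line and 1.99 ± 0.37 (limma, adjusted p = 0.00171) in the Lmx1a line. In the Nkx2.2 line the median difference was 0.58 for transport genes and 1.00 for primary cilium genes, against 2.51 for the 41 genes, and in the Lmx1a line 0.56 and 0.63, against 3.22.

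Genes of centriole amplification had no calls higher, which in a list this short cannot be told from the share over all genes. Of 12 matched genes for centriole amplification and its control, 0 were called higher in limma in any of the 8 comparisons, and at an unadjusted p under 0.05 also 0. Over all genes, 1.96% to 8.84% were called higher in these comparisons. Gmnc and Ccdc78 of this list matched no probe set. In the Nkx2.2 line with RA against the RA wild type 1 was called lower, E2f4, by -2.16 ± 0.50 (limma, adjusted p = 0.00397). Over all genes, 9.16% were called lower there. Other calls of this list were lost in at least 4 of the 6 fits that left out 1 array: E2f4 lower in the Olig2 line, Myb and Trp73 lower than the FGF8 wild type in the Lmx1a line at day 14 and in the Nkx2.2 line with FGF8, and Myb lower in the Lmx1a line at day 10. Deup1, Cdc20b and Ccna1 of this list were flat, so their presence cannot be judged. Among other RFX genes, Rfx4 rose by 2.99 ± 0.58 (limma, adjusted p = 0.00107) in the Nkx2.2 line with RA against the RA wild type and by 3.14 ± 0.58 (limma, adjusted p = 0.00149) in the Lmx1a line at day 14 against the FGF8 wild type. Rfx5 rose by 1.37 ± 0.21 (limma, adjusted p = 0.00019) in the first of these.

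Markers of cell types known for motile cilia were read on the same arrays. Floor plate genes, 9 of 10 matched, moved with the 41 genes in part: all 9 were called higher in the Nkx2.2 line with RA than in the RA wild type, and all 9 in the Lmx1a line at day 14 than in the FGF8 wild type. Over all genes, 8.84% and 6.37% were called higher in these comparisons. The summed values of the floor plate genes were 12.08 to 23.94 in the Nkx2.2 line with RA, 17.86 to 26.23 in the Lmx1a line at day 14, 2.38 to 10.47 in the Nkx2.2 line with FGF8 and 16.26 to 26.55 in the Lmx1a line at day 10. They were -16.93 to -13.68 in the Olig2 line, -23.85 to -12.58 in the FGF8 wild type and -16.44 to -1.98 in the RA wild type. Corin rose by 5.03 ± 0.66 (limma, adjusted p = 5e-05) in the Nkx2.2 line with RA and by 6.43 ± 0.66 (limma, adjusted p = 1.35e-05) in the Lmx1a line at day 14, and the ligand gene Shh by 3.48 ± 0.75 (limma, adjusted p = 0.0026) in the Nkx2.2 line and, in the Lmx1a line, by 4.43 ± 0.75 (limma, adjusted p = 0.000844). Between day 14 and day 10 of the Lmx1a line 0 of 9 were called in limma and 1 was higher at an unadjusted p under 0.05, with a median difference of 0.29, while the 41 genes had a median of 1.86 there. Over all genes, 2.96% were called higher and 1.28% lower in that comparison. The floor plate factors Foxa1 and Foxa2 are also genes of midbrain dopamine progenitors, so these markers do not belong to the floor plate alone.

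**Figure D5:**
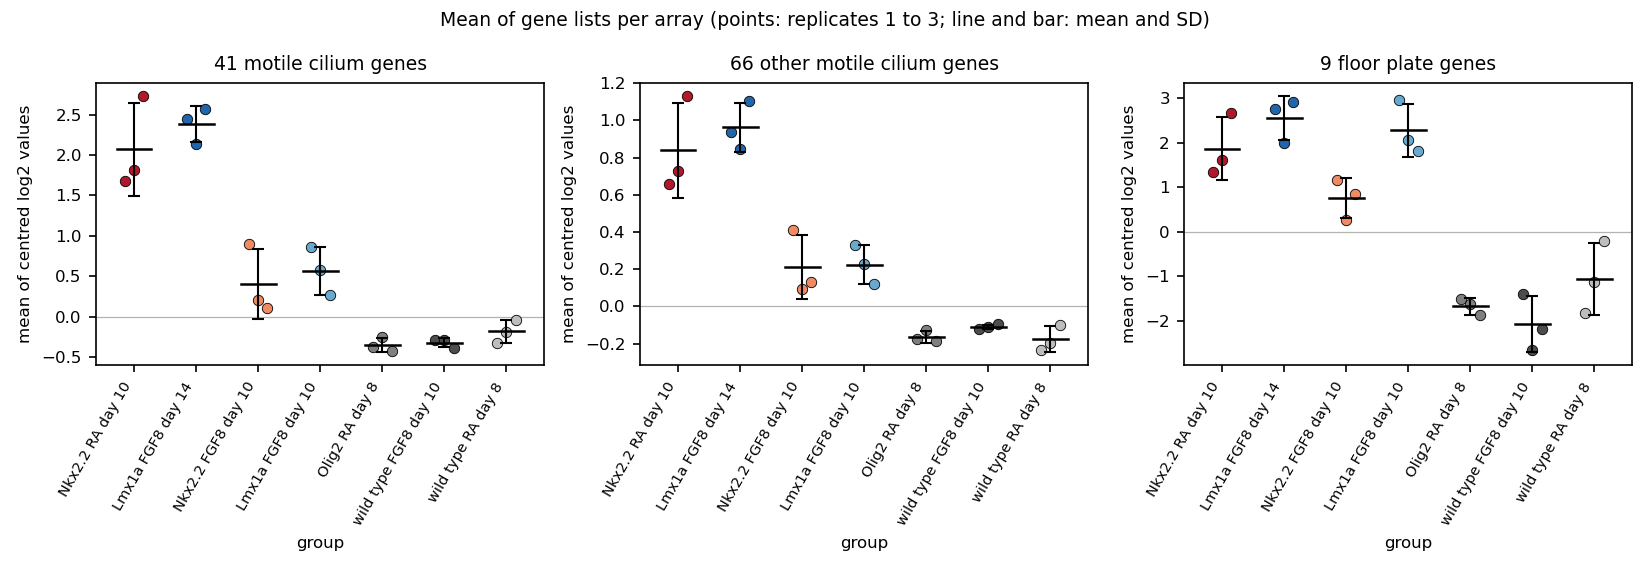
Mean of the centred log2 values per array (y axis) for the 41 genes, for 66 other motile cilium genes and for 9 floor plate genes, with points for replicates 1 to 3, a line at the group mean and a bar of 1 SD. The cilium lists are highest in the Nkx2.2 line with RA and the Lmx1a line at day 14, and the floor plate list is as high in the Lmx1a line at day 10.

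Choroid plexus markers moved less. Of 20 matched genes 7 were flat (Kl, Aqp1, Kcnj13, Slc4a5, Kcne2, Trpv4 and Tmem72), and 2 were called higher and 1 lower in the Nkx2.2 line with RA against the RA wild type, and 4 higher and 0 lower in the Lmx1a line at day 14 against the FGF8 wild type. Over all genes these comparisons called 8.84% higher and 9.16% lower, and 6.37% and 3.46%. In the Nkx2.2 line Folr1 rose by 3.17 ± 0.75 (limma, adjusted p = 0.00461) and in the Lmx1a line by 4.58 ± 0.75 (limma, adjusted p = 0.00061), and Calml4 rose by 3.47 ± 0.76 (limma, adjusted p = 0.00277) in the Nkx2.2 line and in the Lmx1a line by 5.24 ± 0.76 (limma, adjusted p = 0.00022). Ttr, the transthyretin gene, did not follow the cilium genes, at 4.71, -0.03 and 5.54 in the Nkx2.2 line with RA and at 5.56, 0.03 and 2.77 in the FGF8 wild type. The summed values were 1.14 to 16.88 in the Nkx2.2 line with RA, 15.70 to 20.14 in the Lmx1a line at day 14, -7.81 to 0.89 in the RA wild type and -2.01 to 10.10 in the FGF8 wild type. Of 11 ependymal genes that are not ciliary, 4 were flat (S100b, Hdc, Tmem212 and Ccdc153), and 2 were called higher and 0 lower in each of the same comparisons, with Anxa2 up by 1.96 ± 0.40 (limma, adjusted p = 0.00163) in the Nkx2.2 line and, in the Lmx1a line, by 3.58 ± 0.40 (limma, adjusted p = 2.46e-05), but by -0.07 there when no suffixed probe set was used. Their summed values were 0.16 to 5.42 in the Nkx2.2 line with RA, 1.26 to 2.65 in the Lmx1a line at day 14, -4.15 to -1.05 in the RA wild type and -5.89 to -3.71 in the FGF8 wild type. Of 12 spermatid genes, markers of the other large source of axonemal transcripts, 7 were flat (Tnp2, Odf1, Acrv1, Akap4, Ldhc, Pgk2 and Smcp), so their presence cannot be judged. Of the 12, 1 was called higher and 0 lower in the Nkx2.2 line with RA and 0 either way in the Lmx1a line at day 14 against the FGF8 wild type, also at an unadjusted p under 0.05 in limma.

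Most general neuronal genes moved the other way. Of 11 post-mitotic neuron genes 5 were called lower and 0 higher in the Nkx2.2 line with RA than in the RA wild type, and 3 lower and 0 higher in the Lmx1a line at day 14 than in the FGF8 wild type. Over all genes these comparisons called 9.16% and 3.46% lower, and 8.84% and 6.37% higher. Some of the 11 rose without a call: 3 in the Nkx2.2 line, by up to 1.67, and 1 in the Lmx1a line, by 2.31. Rbfox3 fell by 3.43 on the log2 scale (± 0.42, limma, adjusted p = 3.14e-05) and Elavl3 by 3.06 (± 0.35, limma, adjusted p = 1.82e-05) in the Nkx2.2 line with RA, and Nefm differed by -3.93 ± 0.26 (limma, adjusted p = 1.92e-07) in the Lmx1a line at day 14. Their summed values were -12.77 to -8.73 in the Nkx2.2 line with RA, -10.47 to -6.05 in the Lmx1a line at day 14, 0.47 to 2.37 in the RA wild type and 1.75 to 5.14 in the FGF8 wild type. On the 21 arrays the mean of this list correlated at -0.893 with the mean of the 41 genes, that of the floor plate list at 0.839 and that of the other motile cilium genes at 0.994. Neural progenitor genes, 11 of 12 matched, averaged 0.66 ± 0.40 in the Nkx2.2 line with RA and 0.94 ± 0.30 in the Lmx1a line at day 14 (SD, n = 3 each), against 0.01 ± 0.54 in wild type cells given RA and 0.25 ± 1.12 in those given FGF8, and correlated at 0.622 with the 41 genes. Of them 4 were called higher and 1 lower in the Nkx2.2 line with RA against the RA wild type, and 2 higher and 1 lower in the Lmx1a line at day 14 against the FGF8 wild type. Prom1, the prominin gene, rose by 3.43 ± 0.50 (limma, adjusted p = 0.000112) in the first and by 4.33 ± 0.50 (limma, adjusted p = 3.25e-05) in the second, while Pax6 fell by 4.49 on the log2 scale (± 0.84, limma, adjusted p = 0.000837) in the first. The 8 astroglia genes summed to 7.60 to 8.05 in the Nkx2.2 line with RA, to 1.97 to 2.68 in the Lmx1a line at day 14, to -1.62 to 4.79 in the RA wild type and to -5.00 to -2.97 in the FGF8 wild type, with a correlation of 0.653. Of these 8 genes 2 were called higher and 1 lower in the Nkx2.2 line with RA against the RA wild type, with differences from -3.09 to 4.31. In the Lmx1a line at day 14 against the FGF8 wild type 2 were called higher and 0 lower. The largest rise in the Nkx2.2 line with RA was that of Aqp4, a water channel of astrocytes and ependyma, by 4.31 ± 0.44 (limma, adjusted p = 6.42e-06). Cell cycle genes were low in the Lmx1a line at day 14, summing to -22.20 to -11.73, against 6.71 to 12.28 at day 10. Of these, 2 of 11 were called lower, against 1.28% of all genes. Genes of neurons that contact the cerebrospinal fluid, 8 matched, correlated at 0.180, with 3 called higher and 1 lower in the Nkx2.2 line with RA against the RA wild type and 0 higher and 1 lower in the Lmx1a line at day 14 against the FGF8 wild type. The lists share the arrays and their groups, and the part of any of these cell types in the cilium signal was not tested.

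Outside the 41 genes, those whose values on the 21 arrays were most like the list mean were ranked by Pearson's r. Dnajb13 led with 0.976, followed by Akap14 with 0.967 and Aamdc with 0.966. The next 12 were Spaca9, 1700088E04Rik, Tbc1d4, Wdr78, Nfatc1, Colgalt2, Atp1b2, Nme5, Cfap54, Ttc30b, Cfap298 and Pih1d2, down to 0.955. Of these 15, 4 were in the list of other motile cilium genes by symbol and Ttc30b in the transport list. Wdr78 is an older symbol of Dnai4, which that list holds under the newer name and which was therefore not matched. Colgalt2, which is in none of the lists, averaged 4.21 in the Nkx2.2 line with RA and 4.54 in the Lmx1a line at day 14, against -0.17 to 0.73 in the other 5 groups.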

How the data were processed

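Total RNA (2 ug) from 21 samples was labelled and hybridized to Affymetrix arrays, per the labels' protocols. The authors deposited log2 signals. They used GCRMA (no version named) per the submitters' processing notes. Every probe set in the deposited log2 table has its median subtracted, over 27 arrays: no probe set has more than 13 positive or more than 13 negative values, and an exact 0 occurs in 79.2%. Of these 27 arrays 21 are analysed here. The centring leaves differences between arrays as they were and removes the level of each gene, and so the probe set with the highest level and a filter on low levels could not be used.

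Of 45101 probe sets, 64 were controls, 34945 had 1 gene symbol in the platform annotation, 932 several and 9160 none here. For each of 18193 genes the most variable probe set was taken, for 9010 genes out of several. Tests used limma 3.58.1 under R 4.3.3 (lmFit with 1 mean per group over 21 arrays, contrasts and eBayes with 14 residual and 1.11 prior degrees of freedom), with Benjamini-Hochberg adjustment over all genes within each of 8 comparisons. The members, the 15 other lists and their tests were chosen with earlier results of these data known. Foxj1, Rsph4a and the members with the largest SD, 15 in all, are given by array in the high groups and by array or range in the others. Lists were matched by symbol, so that symbols newer than the annotation stay unmatched. Of each other list at most 5 called genes per comparison are named, the largest first, and fewer where leaving out an array ended a call, a choice made after their values were seen. Beside them stand the 15 genes most like the list mean. The number of arrays limits the precision, and p values cover the spread between these samples, pooled for each gene over all 7 groups. The spread differed between groups: Pifo had an SD of 0.0003 in the RA wild type and of 1.15 in the Nkx2.2 line with FGF8. For genes near 0 in most groups, standard errors and p values thus do not give the spread within the high groups. The procedure was tested on simulated data. Alternatives were a replicate block, the bioC split, robust moderation (statmod 1.5.0), leaving out arrays, other weights, probe set rules, centring, filters and thresholds.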

Additional observations from a re-analysis of the deposited data

Results flagged for a closer look

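The effect of the Nkx2.2 line against wild type cells was larger under RA than under FGF8 for part of the cilium genes. In limma's test of the difference between these effects 12 of the 41 genes were called higher under RA and 0 lower, with 1.78% of all genes called higher and 2.6% lower. The largest were Cfap52 at 4.64 ± 0.38, Cfap126 at 3.78 ± 0.85, Rsph4a at 3.59 ± 0.29, Dynlrb2 at 3.54 ± 0.66 and Spef2 at 3.40 ± 0.47 log2 units, while Efcab1, at -0.16 ± 0.83, Rsph9, at -0.38 ± 0.31, and Ttc6, at 0.12 ± 0.65, were not called. Of the 66 other motile cilium genes 11 were called higher under RA and 0 lower, among them Cfap54 at 2.92 ± 0.76 (limma, adjusted p = 0.0374) and Katnal2 at 2.47 ± 0.54 (limma, adjusted p = 0.0167). The RA comparison sets day 10 against day 8 and the FGF8 comparison holds the day fixed, so factor and day cannot be told apart in this difference. All arrays of the RA comparison had higher bioC signals, while replicates 1 and 2 of the FGF8 wild type had low ones. The bioC split thus moves with this difference too. Replicate 1 of the Nkx2.2 line with FGF8 was that group's highest array for 37 of 41 genes. This test was not refitted with arrays left out or under the other alternatives.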

How the results depend on the processing

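Counts were compared by size alone, and no list mean difference changed its direction. Of 121 calls of single members 3 did, all of Cfap43 without suffixed probe sets: -0.09 for Lmx1a day 14 against day 10, -0.04 for Lmx1a day 14 against wild type FGF8 and -0.03 for Nkx2.2 RA against Nkx2.2 FGF8. The same happened to 1 of 101 calls of other motile cilium genes and to 9 of 227 calls in other lists, under the same rule. Among high bioC arrays the Lmx1a day 14, Olig2 and FGF8 wild type groups each hold 1 array, which the fit assumes to vary like the other groups, so their counts there are weak checks. Of the counts of called members 110 stayed within 1.5 times and 43 did not, of the counts of other motile cilium genes 123 and 30, and of the list mean differences 90 moved by less than 1 SD and 7 by more. The cause was not tested unless fewer arrays or a stricter threshold is the change itself. In this paragraph the comparisons are named by their groups. Replicate numbers did not pair arrays: residuals of 63 pairs with the same number correlated at 0.00603 on average (-0.35 to 0.385), against -0.00337 in 126 pairs with different numbers. With replicate number as a block, the members called were 27 (Nkx2.2 RA against wild type RA), 7 (Nkx2.2 RA against Lmx1a day 14), 20 (Nkx2.2 RA against Nkx2.2 FGF8), 22 (Lmx1a day 14 against day 10), 30 (Lmx1a day 14 against wild type FGF8), 8 (Lmx1a day 10 against wild type FGF8), 4 (Nkx2.2 FGF8 against wild type FGF8) and 0 (Olig2 against wild type RA), and this pairing by number moved no count by over 1.5 times.

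For Nkx2.2 RA against Lmx1a day 14, the 7 members became 2 to 12 with an array left out, 4 with the bioC split as a block, 1 among high bioC arrays (3 against 1), 1 with the 6 arrays alone, 12 with array weights, 2 at an adjusted p under 0.01 and 2 at a difference of 2 or more, and the 6 other genes became 3 to 11, 3 among high bioC arrays, 2 alone, 10 with weights and 2 at a difference of 2. For Nkx2.2 RA against Nkx2.2 FGF8, the 20 members became 12 among high bioC arrays and 5 alone, and the 13 other genes 8 to 15 with an array left out, 4 among high bioC arrays, 3 alone, 6 at 0.01 and 6 at a difference of 2. For Lmx1a day 14 against day 10, the 23 members became 15 alone, the 21 other genes 13 alone and 9 at a difference of 2, and the list mean difference of 1.82 became 1.54 with the mean of all probe sets and 2.14 over genes in the upper part of the range. For Lmx1a day 14 against wild type FGF8, the 30 members and the 28 other genes each became 15 among high bioC arrays (1 array against 1), and 22 and 24 among low bioC arrays (2 against 2), the other genes 13 at a difference of 2, and the list mean difference of 2.71 became 2.96 among high bioC arrays, 2.58 among low ones, 2.21 with all probe sets and 3.18 in the upper part of the range. For Nkx2.2 RA against wild type RA, the 27 other genes became 13 at a difference of 2 and the list mean difference of 2.26 became 1.82 with all probe sets.

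For Lmx1a day 10 against wild type FGF8, the 9 members became 4 to 9 with an array left out, 5 with the bioC block, 5 among low bioC arrays, 5 alone, 3 at 0.01 and 4 without 3 arrays that stood apart (a choice made after seeing the data), the 3 other genes 1 alone and 6 with weights, and the list mean difference of 0.89 became 0.67 with all probe sets. For Nkx2.2 FGF8 against wild type FGF8, the 5 members became 3 to 9 with an array left out, 3 with the bioC block, 3 among high bioC arrays, 2 alone, 8 with weights, 3 at 0.01 and 3 without the 3 arrays, and the 2 other genes 2 to 6, 1 without suffixed probe sets, 4 in the upper part of the range and 4 without the 3 arrays. For Olig2 against wild type RA, the 0 members became 0 to 1 with an array left out, 4 with weights and 1 each with all probe sets, without suffixed probe sets, with centred arrays and in the upper part of the range, and the 1 other gene 0 among high bioC arrays, at 0.01, without suffixed probe sets and at a difference of 2, 3 alone and in the upper part of the range, and 2 with weights.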

Other observations

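Efhc2 gave nearly the same value on all 3 arrays of the Nkx2.2 line with RA, at 2.01, 2.01 and 1.99, and lay between -0.06 and 0.12 on the other 18 arrays, the Lmx1a line at day 14 included. Dnah1 differed from most dynein genes among the members in the Lmx1a line at day 14, where it read -2.30 to -1.47. It read 1.67 to 1.91 in the Nkx2.2 line with RA and -0.35 to 0.18 in the RA wild type. These genes were chosen after their values were seen.

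Myb and Trp73, regulators of multiciliated cells, were raised only in the FGF8 wild type, and only on replicates 1 and 3. Myb read 2.44 and 3.68 on these arrays and 0.30 on replicate 2, and Trp73 read 2.24 and 1.33 against 0.06. Those 2 arrays also had the highest cell cycle sums of the 21, at 22.42 and 28.96, against -20.79 on replicate 2. On the other 18 arrays Myb lay at 0.45 or lower and Trp73 at 0.06 or lower.

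Replicate 3 of the RA wild type had the highest value of its group for 23 of the 41 cilium genes, and its floor plate sum was -1.98, against -16.44 and -10.17 on its group's other arrays. In the immature dopamine group, replicate 1 was highest for 32 of the 41 genes.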
